A study of Arabidopsis thaliana with 13 samples.

Results

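Inflorescences on day 8 of synchronised flower development were compared with inflorescences on day 4 by sequencing of their small RNA (miRNA-seq). The comparison takes 5 of the 13 libraries of the study, 2 of day 4 and 3 of day 8, which were sequenced in the same run. All miRNA genes with at least 1 RPM (reads of a gene per 1000000 mapped reads of its library) in at least 2 of these 5 libraries were tested, which are 120 of the 325 miRNA genes listed. Of the others, 147 were at 0 in all 5 libraries and 58 were above 0 but under this limit.

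The plants of both days were *Arabidopsis thaliana* of the Landsberg background that carry pAP1:AP1:GR in the *ap1 cal* double mutant. All had been treated with dexamethasone (DEX), and no mock-treated library of either day is among the samples. Without induction these plants form masses of inflorescence meristems in place of flowers. The fusion of the floral meristem identity factor AP1 with the hormone-binding part of the glucocorticoid receptor (GR), driven by the promoter of *AP1* itself, enters the nucleus on treatment with DEX, and the meristems then turn to flower formation together. The model is therefore 1 mutant line with an added factor. Its miRNA genes were counted on TAIR10, a genome of another accession (Columbia). Day 0 (2 libraries) and day 2 (3 libraries) of the same line were used to set the steps side by side and to estimate the spread between replicates. Days are counted from the first treatment with DEX, so the inflorescences of day 0 are taken here as not yet induced. Days 0 and 2 were sequenced in another run, and seedlings in yet another one.

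The 5 libraries had 926300 and 1702671 mapped reads on day 4 and 1161528 to 1576146 on day 8. Between 118 and 140 miRNA genes per library were above 0, and 2.76% to 3.18% of the mapped reads were of miRNA genes. A gene listed at 0 in 1 library had no counted read there, but the count to be expected from its level could still be up to 3 reads. This floor is 1.76 to 3.24 RPM (it covers counting error alone, as no molecular identifiers were used). All replicate pairs differed by more than sampling noise. Their chi-square was 4.07 per gene on day 4, and on day 8 it was 3.18 between replicates 2 and 3 but 13.6 and 11.6 between replicate 1 and either of them. Day 8 replicate 1 therefore stood apart, and day 4 replicate 1 was the shallowest library. The 3 pollen-associated genes that served as a check of the tissue (*MIR845a*, *MIR845b* and *MIR2939*) were at 0 in all 5 libraries. An inflorescence holds many cell types, so fewer cells of a type and less RNA per cell cannot be told apart. The replicates are called biological in the paper, but the labels do not name separate plants, and a part of the spread behind the p-values may be technical.

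MicroRNAs of plants are cut by DICER-LIKE 1 from the hairpin of a longer transcript, loaded into an ARGONAUTE protein, mostly AGO1, and guide it to nearly complementary mRNAs, which are cleaved or not translated. In flowers many of their targets encode transcription factors of meristem identity, organ boundaries and organ growth. miR172 limits *AP2*-like genes, miR164 the *CUC* genes of organ boundaries, miR319 the growth-restraining *TCP* genes, miR167 the auxin response factors *ARF6* and *ARF8*, and miR156 and miR157 the *SPL* genes.

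The mature sequences of the genes on which the results turn are shown so that loci with the same or nearly the same miRNA can be told apart, because the counting kept only reads that map to 1 place. They are from the RefSeq annotation of TAIR10.1, in which all 325 loci were found, and run from 5′ to 3′ with the seed (bases 2 to 8) in capitals. Those of the genes that fell come first.
miR319b (chr5:16660469-16660489, minus strand): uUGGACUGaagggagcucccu
miR164c-5p (chr5:9852684-9852704, plus strand): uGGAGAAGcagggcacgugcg
miR172d-3p (chr3:20587991-20588011, plus strand): aGAAUCUUgaugaugcugcag
miR172d-5p (chr3:20587921-20587941, plus strand): gCAACAUCuucaagauucaga
miR4228-5p (chr1:28889395-28889415, plus strand): aUAGCCUUgaacgccgucguu
miR4228-3p (chr1:28889481-28889501, plus strand): uCGGAUGCgaaacgguggugu

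The next sequences belong to genes that rose. miR156a-5p and miR157d share a seed, and so do miR396a-5p and miR396b-5p. No other seed was shared among the mature sequences of the changed genes.
miR156a-5p (chr2:10676534-10676553, minus strand): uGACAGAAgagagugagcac
miR157d (chr1:18026989-18027008, minus strand): uGACAGAAgauagagagcac
miR396a-5p (chr2:4142443-4142463, minus strand): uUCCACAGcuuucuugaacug
miR396b-5p (chr5:13611808-13611828, plus strand): uUCCACAGcuuucuugaacuu
miR167a-5p (chr3:8108090-8108110, plus strand): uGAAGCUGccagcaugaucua
miR171b-3p (chr1:3961367-3961387, minus strand): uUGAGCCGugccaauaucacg
miR168a-5p (chr4:10578652-10578672, plus strand): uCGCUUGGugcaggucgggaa
miR824-5p (chr4:12625128-12625148, plus strand): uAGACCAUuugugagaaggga
miR858a (chr1:26773695-26773715, minus strand): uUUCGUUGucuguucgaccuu
miR863-5p (chr4:7846644-7846664, plus strand): uUAUGUCUuguugaucucaau
miR863-3p (chr4:7846835-7846855, plus strand): uUGAGAGCaacaagacauaau
miR780.1 (chr4:8504166-8504186, minus strand): uCUAGCAGcuguugagcaggu
miR780.2 (chr4:8504145-8504165, minus strand): uUCUUCGUgaauaucuggcau

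Counting from the 5′ end, miR396a-5p and miR396b-5p differ only by G21U, and miR164a and miR164c-5p only by A21G. The sequence of miR319b is also that of miR319a, and only the next base of the genome tells these loci apart. A locus is called end-dependent here where a mature sequence of it can be assigned to a single place in the genome only by its last base or by the base that follows, and among the changed genes these are *MIR319b*, *MIR164c*, *MIR167a*, *MIR396a* and *MIR396b*. Of the 20 changed genes, 13 had mature sequences with a single place in the genome only. Another 5 (*MIR156a*, *MIR167a*, *MIR168a*, *MIR171b* and *MIR172d*) had 1 such sequence and 1 with several places. *MIR157d* and *MIR319b* had none, since the sequence of miR157d is found at 4 places and that of miR319b at 2. A read of exactly a sequence with several places is not counted, so what was counted at *MIR157d* and *MIR319b* are reads with other ends. At the 5 genes with 1 sequence of each kind, the exact reads of 1 sequence are likewise left out. Values of such genes, and sums of their families, are therefore not levels of the mature miRNA. The values of a gene hold the counted reads of both arms of its hairpin, and neither arm nor read ends can be told from them.

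Between day 4 and day 8, 20 of the 120 tested miRNA genes changed (16.7%) with an adjusted p below 0.05 (limma). Of these, 16 were higher on day 8 (13.3%) and 4 were lower (3.33%). In the plot of change against level the changed genes lay at low to middle levels. None of the 5 most abundant genes passed the test in the main fit (none at an unadjusted p under 0.05) or with edgeR, and *MIR863* was the only changed gene above a mean of 100 RPM. In all 20 the libraries of day 4 and day 8 did not overlap, and the same held for 54 of the 120 tested genes (45.0%), of which 37 were above on day 8 (30.8%) and 17 below (14.2%). At an unadjusted p under 0.05 there were 31 genes. The log2 fold change on the log2(RPM + 1) scale, which understates the change of genes with few reads, was positive in 77 tested genes and negative in 43, with a median of 0.17. This median moved to 0.06 with median-ratio scaling and to -0.02 with the authors' quantile-normalized values, and with the latter 11 genes were higher and 7 lower. Without day 4 replicate 1, 8 genes were higher and 4 lower among 111 tested, and 11 of these 12 were among the 20.

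**Figure D1:**
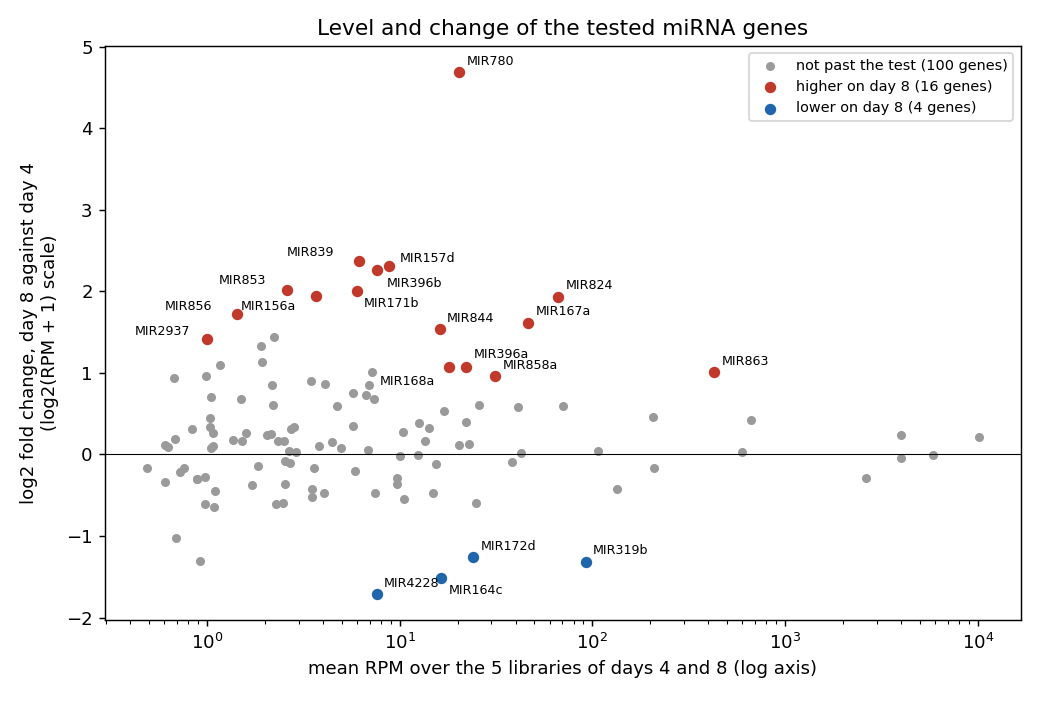
Mean level over the 5 libraries of days 4 and 8 (x axis, RPM, log axis) against the log2 fold change of day 8 against day 4 (y axis) for the 120 tested miRNA genes. The 16 genes that rose and the 4 that fell are coloured and named, and the 5 genes above 1000 RPM all lie near 0 and did not pass the test.

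Of the 16 tested genes with a mean under 1 RPM none changed with limma or edgeR (2 at an unadjusted p under 0.05), and of the 63 genes between 1 and 10 RPM 8 were higher and 1 was lower. Between 10 and 100 RPM, 7 of 29 genes were higher and 3 lower, and between 100 and 1000 RPM 1 of 7 was higher. The median half-width of the 95% interval of the log2 fold change was 1.01 between 1 and 10 RPM and 0.66 between 10 and 100 RPM. Among the 100 genes that did not pass the test, the interval of 19 lay within -1 and 1, and that of the other 81 reached beyond, so that a 2-fold change was within their interval.

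The 4 genes that fell include *MIR172d*, *MIR164c* and *MIR319b*, each of a miRNA that limits transcription factors of floral organs. *MIR172d* (AT3G55512) is a locus of miR172, which restrains *AP2* and its relatives in floral organ identity. It had 33.5 and 41.7 RPM in the day 4 libraries and 15.5, 18.1 and 12.1 RPM in the day 8 libraries. All 3 day 8 libraries were thus lower than both day 4 libraries, with a log2 fold change of -1.26 (SE 0.28, limma adjusted p = 0.0021). It is the only tested gene of the 5 miR172 loci, and the summed reads of the miR172 family changed by -1.28 (SE 0.27, limma adjusted p = 0.0011). Of the 2 mature sequences of *MIR172d*, 1 has several places, and its exact reads are not in these values. *MIR172e*, with 2.16 RPM in day 4 replicate 1 and 0.587 to 0.861 RPM in the other libraries, lay just outside the limit for testing.

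*MIR164c* (AT5G27807), whose miRNA limits the *CUC* genes that keep organ boundaries free of growth and in petals restrains their number, had 31.3 and 24.1 RPM on day 4. On day 8 it had 7.75, 10.5 and 8.88 RPM. The groups were well apart, and the log2 fold change was -1.51 (SE 0.31, limma adjusted p = 0.00074). *MIR164b*, the other tested locus of this family, had 1.08 and 1.17 RPM on day 4 and 2.58, 3.49 and 2.54 RPM on day 8, and its log2 fold change of 0.85 did not pass the test (SE 0.48, limma adjusted p = 0.26). Summed over the loci, the miR164 family fell by 1.15 on the log2 scale (SE 0.27, limma adjusted p = 0.0029), and without day 4 replicate 1 it did not pass the test (-0.98, limma adjusted p = 0.080). *MIR164c* is end-dependent.

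*MIR319b* (AT5G41663) is 1 of 3 loci of miR319, which limits *TCP4* and other *TCP* genes that hold back organ growth. Its RPM was 164 and 125 on day 4 and 46.5, 59.3 and 67.3 on day 8. All 3 day 8 libraries were far below both day 4 libraries, and the log2 fold change was -1.31 (SE 0.18, limma adjusted p = 9.6e-06). The more abundant loci of the same family did not pass the test in the main fit. *MIR319c* had 5793 ± 426 RPM on day 4 (SD, n = 2) and 5851 ± 1217 RPM on day 8 (SD, n = 3), and *MIR319a* had 2941 ± 224 RPM (SD, n = 2) and 2411 ± 120 RPM (SD, n = 3). For *MIR319a* the log2 fold change was -0.29 (SE 0.15, limma adjusted p = 0.21). It passed the test with median-ratio scaling (-0.44, limma adjusted p = 0.019) and with scaling to the reads of miRNA genes (-0.39, limma adjusted p = 0.012). Among the 6 tested genes of the list of miR159 and miR319, which target *GAMYB* and *TCP* genes, 1 fell and none rose, with a median of 0.01.

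*MIR319b* and *MIR396b* also differed between the runs. *MIR319b* had 2566 to 3314 RPM in the 5 libraries of days 0 and 2, against 46.5 to 164 RPM in those of days 4 and 8. *MIR396b* had 42.5 to 104 RPM in the earlier run and 0 to 12.1 RPM in the later one. Both loci are end-dependent, and the part of the read ends in these values was not tested.

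*MIR4228* (AT1G09687), a locus of no assigned role here, had 14.0 and 12.9 RPM on day 4 and 1.72, 5.58 and 3.81 RPM on day 8. The highest day 8 library was still below both day 4 libraries, and the log2 fold change was -1.71 (SE 0.39, limma adjusted p = 0.0022). This call was lost when the seedlings entered the fit (limma adjusted p = 0.15).

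**Figure D2:**
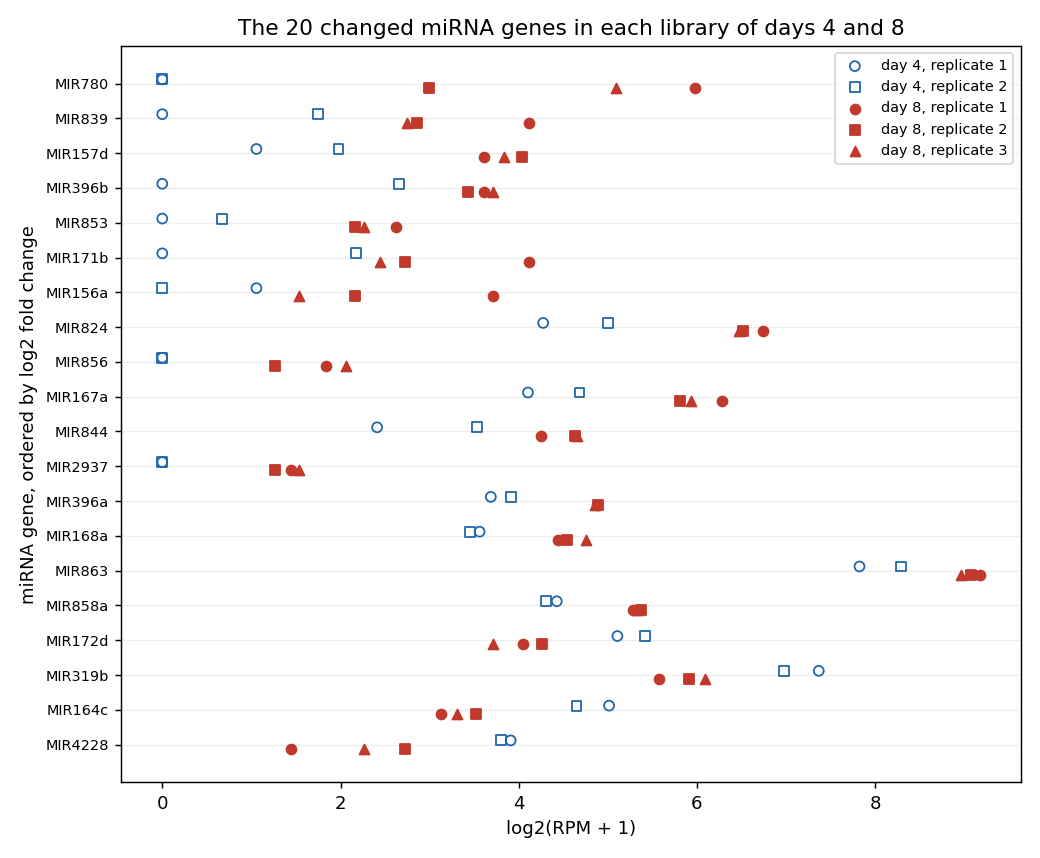
log2(RPM + 1) of the 20 changed miRNA genes (rows, ordered by log2 fold change) in the 2 libraries of day 4 (open symbols) and the 3 libraries of day 8 (filled symbols). The groups do not overlap in any row, and the day 8 libraries of *MIR780*, *MIR171b* and *MIR156a* lie far apart from each other.

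Of the genes that rose, *MIR863* and *MIR824* had the highest mean RPM on day 8. *MIR824* (AT4G24415) gives miR824, which limits the MADS-box gene *AGL16*, known for its part in stomatal lineages and flowering time. It had 18.4 and 31.1 RPM on day 4 and 106, 90.7 and 87.6 RPM on day 8. The mean was thus 3.83-fold higher, with all day 8 libraries far above day 4 (log2 fold change of 1.94, SE 0.28, limma adjusted p = 1.4e-05). The locus lies over an exon of AT4G24413 on the opposite strand.

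*MIR863* (AT4G13494), whose miR863-3p is known from the immune response of leaves, had 226 and 312 RPM on day 4. It had 576, 537 and 499 RPM on day 8, a doubling of the mean (ratio of 2.00) without overlap. The log2 fold change was 1.01 (SE 0.20, limma adjusted p = 0.00067). With the authors' quantile-normalized values it was 0.79 and did not pass the test (limma adjusted p = 0.25).

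*MIR780* (AT4G14811), whose miR780.1 is known to target the cation exchanger gene *CHX18*, was listed at 0 in both day 4 libraries. It thus met the limit for testing through the day 8 libraries alone. On day 8 it had 62.0, 6.98 and 33.0 RPM. The pooled level of day 8 (134 reads) was 28.2 times a floor of 3 reads over the day 4 libraries together, which had 0 reads. This bounds the counting error of day 4 alone, and the spread between the day 8 libraries is not in it. The day 8 libraries themselves spread widely, with replicate 2 well below the others (34.0 ± 27.5 RPM, SD, n = 3). The difference passed the test (limma adjusted p = 5.6e-06) and did so without any 1 library. The locus overlaps an exon of AT4G14810 on the opposite strand, and whether the miRNA-seq reads were counted by strand is not given in the sources used here.

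In the list of miR156 and miR157, which limit the *SPL* genes of phase change and flowering, 6 of 14 loci were tested. *MIR157d* and *MIR156a* were higher on day 8 and none was lower. The median log2 fold change was 1.29, against 0.17 over all tested genes, and all 6 values were positive, or 4 of 6 with the authors' quantile-normalized values and 5 of 6 with edgeR, without either day 4 library or without day 8 replicate 3. *MIR157d* (AT1G48742) had 1.08 and 2.94 RPM on day 4 and 11.2, 15.4 and 13.3 RPM on day 8. The day 8 values lay close together and far above day 4 (log2 fold change of 2.31, SE 0.43, limma adjusted p = 0.00037).

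*MIR156a* (AT2G25095) had 1.08 and 0 RPM on day 4 and 12.1, 3.49 and 1.90 RPM on day 8, with day 8 replicate 1 far above the others. The pooled reads were 1 on day 4 and 22 on day 8, a ratio of 13.9 with a 95% exact counting interval of 2.24 to 572. The log2 fold change was 1.94 (SE 0.56, limma adjusted p = 0.014). It lost its call without day 8 replicate 1 (1.32, limma adjusted p = 0.066) and without day 4 replicate 2 (1.41, limma adjusted p = 0.12), and also with 4 other settings. *MIR157c*, with 1 read on day 4 and 13 reads on day 8, narrowly missed the threshold (log2 fold change of 1.44, SE 0.52, limma adjusted p = 0.059). It passed the test with a pseudocount of 5, with TMM scaling, without day 4 replicate 1 and without day 8 replicate 3 (limma adjusted p of 0.013 to 0.048). *MIR156b*, the most abundant locus of the list, had 15.1 and 4.70 RPM on day 4 and 13.8, 9.77 and 8.88 RPM on day 8. Here the days overlapped (limma adjusted p = 0.83). The summed miR157 family rose by 2.32 on the log2 scale (SE 0.38, limma adjusted p = 8.1e-05) and passed the test in every setting tried.

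Both loci of miR396 rose. This miRNA limits *GRF* genes, which promote cell proliferation in growing organs. *MIR396b* (AT5G35407) had 0 and 5.29 RPM on day 4 and 11.2, 9.77 and 12.1 RPM on day 8. The day 8 libraries were alike, while the day 4 libraries were not (log2 fold change of 2.26, SE 0.46, limma adjusted p = 0.00074). Without day 4 replicate 1 the log2 fold change was 0.93 and did not pass the test (limma adjusted p = 0.072), nor did it in the fit of days 4 and 8 alone (limma adjusted p = 0.086) or with the authors' quantile-normalized values (limma adjusted p = 0.12). *MIR396a* (AT2G10606) had 11.9 and 14.1 RPM on day 4 and 28.4, 28.6 and 27.9 RPM on day 8. The replicates were close on either day (log2 fold change of 1.07, SE 0.32, limma adjusted p = 0.018), but the call was lost in 7 of the 24 settings that gave a value. Among these were the fits without day 4 replicate 1 (0.96, limma adjusted p = 0.087), day 8 replicate 1 (1.07, limma adjusted p = 0.058) and day 8 replicate 2 (1.06, limma adjusted p = 0.072). The sum of both loci changed by 1.32 (SE 0.26, limma adjusted p = 0.00061) and passed the test in every setting tried.

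Among the 5 tested genes of the auxin response list (miR160, miR167 and miR393) only *MIR167a* changed (AT3G22886). Its miRNA limits *ARF6* and *ARF8*, which act in the maturation of stamens and gynoecium. It had 16.2 and 24.7 RPM on day 4 and 76.6, 55.1 and 60.3 RPM on day 8. Every day 8 library was more than 2 times the higher day 4 library, and the log2 fold change was 1.62 (SE 0.24, limma adjusted p = 1.9e-05). *MIR167b*, with the same mature miRNA, had 0.888 ± 0.772 RPM on day 8 (SD, n = 3) and did not pass the test (limma adjusted p = 0.65). The list had a median of 0.35, which was -0.10 with the authors' quantile-normalized values and -0.08 without day 4 replicate 2.

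In the list of miR170 and miR171, which limit *SCL* genes (of the *HAIRY MERISTEM* type) in shoot meristems, all 4 loci were tested, and 1 was higher on day 8. *MIR171b* (AT1G11735) had 0 and 3.52 RPM on day 4 and 16.4, 5.58 and 4.44 RPM on day 8, with replicate 1 again far above the others. Its log2 fold change of 2.00 (SE 0.56, limma adjusted p = 0.012) did not pass the test without day 8 replicate 1 (1.49, limma adjusted p = 0.12) or day 4 replicate 1 (0.92, limma adjusted p = 0.41), nor with 5 other settings. *MIR171c* had 4.12 ± 3.33 RPM on day 4 (SD, n = 2) and 6.85 ± 2.11 RPM on day 8 (SD, n = 3), and *MIR171a* had 2.25 ± 0.134 and 3.06 ± 0.655 RPM. Neither passed the test (limma adjusted p = 0.36 and 0.83). The list's median log2 fold change was 0.82.

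*MIR168a* (AT4G19395) was the 1 changed gene of 4 tested in the list of the small RNA machinery (miR162, miR168 and miR403). miR168 limits *AGO1*, the protein through which most plant miRNAs act. The gene had 10.8 and 9.98 RPM on day 4 and 20.7, 22.3 and 26.0 RPM on day 8. The days were clearly separate (log2 fold change of 1.07, SE 0.33, limma adjusted p = 0.020), but the call was lost without either day 4 library and without day 8 replicate 2 or 3 (0.98 to 1.12, limma adjusted p of 0.066 to 0.088), and with the seedlings in the fit (limma adjusted p = 0.72). *MIR403*, whose miRNA limits *AGO2*, had 39.7 ± 7.97 RPM on day 4 (SD, n = 2) and 37.7 ± 9.99 RPM on day 8 (SD, n = 3), with overlap. With the authors' quantile-normalized values it was called lower on day 8 (-0.82, limma adjusted p = 0.026).

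*MIR858a* (AT1G71002), of the miRNA that limits *MYB* genes of flavonoid synthesis, had 20.5 and 18.8 RPM on day 4. It had 37.9, 40.5 and 39.3 RPM on day 8. The replicates of each day were within a few RPM of each other, and the log2 fold change was 0.96 (SE 0.27, limma adjusted p = 0.012). It did not pass the test without day 4 replicate 1 (1.02, limma adjusted p = 0.059) or replicate 2 (0.90, limma adjusted p = 0.073), where 1 day 4 library is left and is assumed to vary like those of the other days. *MIR858b* had 2.01 ± 1.31 RPM (SD, n = 2) and 3.37 ± 3.18 RPM (SD, n = 3), and its days overlapped.

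**Figure D3:**
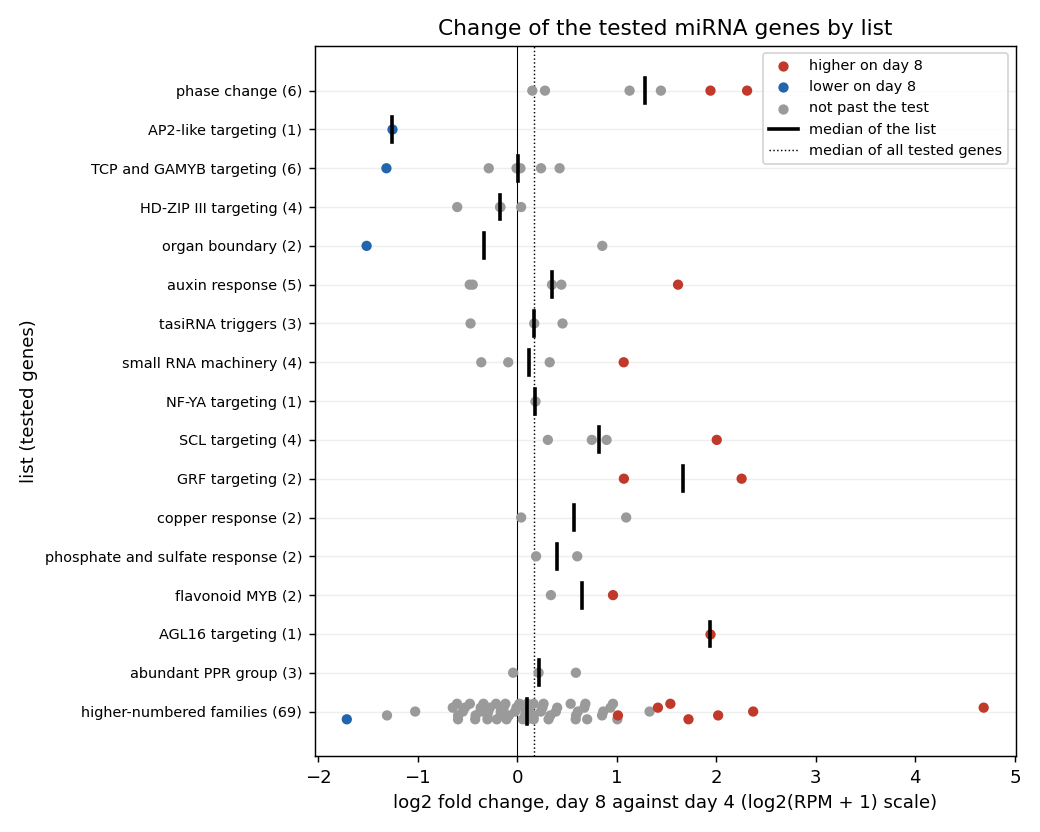
log2 fold change of day 8 against day 4 (x axis) for the tested miRNA genes of each list by target or family number (rows, number of tested genes in brackets), with the median of each list as a bar and that of all tested genes (0.17) as a dotted line. The phase change and GRF lists lie to the right with medians of 1.29 and 1.66, and the 69 genes of the higher-numbered families are centred on 0.10.

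Other lists of known target, and that of miR158, miR161 and miR400, held no changed gene with limma or edgeR, and 3 of their 15 tested genes had an unadjusted p under 0.05. The 4 tested genes of miR165 and miR166, which limit the *HD-ZIP III* genes of organ polarity, had a median of -0.17, and *MIR166a* had 223 ± 26.5 RPM on day 4 (SD, n = 2) and 198 ± 18.5 RPM on day 8 (SD, n = 3). Its interval for the log2 fold change was -0.56 to 0.21. The triggers of trans-acting siRNAs (miR173 and miR390, 3 tested) had a median of 0.17. *MIR173* had 153 and 179 RPM on day 4 and 316, 188 and 198 RPM on day 8. Day 8 replicate 1 was far above the rest, and the change did not pass the test (limma adjusted p = 0.20).

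The lists of nutrient responses were also without a call. For copper (miR398 and miR408 among others), 2 of 7 loci were tested. *MIR398a*, whose miRNA limits copper/zinc superoxide dismutases, had 0 and 0.587 RPM on day 4 and 2.58, 1.40 and 1.27 RPM on day 8, without overlap, but rests on 1 read against 7 (limma adjusted p = 0.097). It passed the test without the intensity trend (limma adjusted p = 0.037) and with the seedlings in the fit (limma adjusted p = 0.026). For phosphate and sulfate 2 of 13 loci were tested. *MIR827*, whose miRNA limits *NLA* in phosphate uptake, had 15.1 and 24.1 RPM on day 4 and 22.4, 30.7 and 37.4 RPM on day 8, where the days overlapped (log2 fold change of 0.60, limma adjusted p = 0.13), and it passed the test only without day 4 replicate 2 (0.92, limma adjusted p = 0.021). *MIR169a* was the only tested locus of the 14 of miR169, which limits *NF-YA* genes, and had 1.13 ± 0.0672 RPM (SD, n = 2) and 1.54 ± 0.982 RPM (SD, n = 3).

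The higher-numbered families, taken here as those above 400 with no list of their own, have 219 loci. They held 69 of the 120 tested genes and 8 of the 20 calls, so they were called less often than tested genes in general. Of the 8 calls, 7 were higher and 1 lower, and the median log2 fold change of the 69 genes was 0.10. Besides *MIR780*, *MIR863* and *MIR4228* the called genes are *MIR844*, *MIR839*, *MIR853*, *MIR856* and *MIR2937*. *MIR844* (AT2G23347), in an intron of AT2G23348 on the same strand, had 4.32 and 10.6 RPM on day 4 and 18.1, 23.7 and 24.1 RPM on day 8. The days were apart (log2 fold change of 1.54, SE 0.39, limma adjusted p = 0.0055), but not past the test without day 4 replicate 1 (0.98, limma adjusted p = 0.15), with the seedlings in the fit (limma adjusted p = 0.35) or with the authors' quantile-normalized values (limma adjusted p = 0.11).

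*MIR839* (AT1G67481) had 0 and 2.35 RPM on day 4 and 16.4, 6.28 and 5.71 RPM on day 8. Replicate 1 was the highest, as for *MIR171b* and *MIR156a* (log2 fold change of 2.37, SE 0.58, limma adjusted p = 0.0040). *MIR853* (AT3G23326), in an intron of AT3G23325, had 0 and 0.587 RPM on day 4 and 5.17, 3.49 and 3.81 RPM on day 8. The 17 reads of day 8 against 1 read of day 4 give a ratio of 10.7 (95% exact counting interval of 1.68 to 448). Both calls were lost without day 4 replicate 1, with a log2 fold change of 1.50 for *MIR839* and 1.69 for *MIR853* (limma adjusted p = 0.12 and 0.072).

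*MIR856* (AT1G32992) and *MIR2937* (AT5G05185) were at 0 in both day 4 libraries. Like *MIR780* and *MIR853*, they met the limit for testing through the day 8 libraries alone. *MIR156a*, *MIR171b*, *MIR839* and *MIR396b* had only 1 day 4 library at 1 RPM or more, so they too needed day 8 libraries to be tested. The filter thus chose all these genes wholly or in part by their day 8 values. Their p-values are not independent of that choice. *MIR856* had 2.58, 1.40 and 3.17 RPM on day 8, which is 10 reads and, pooled, 2.10 times the floor of 3 reads over the day 4 libraries. *MIR2937* had 1.72, 1.40 and 1.90 RPM, which is 7 reads and, pooled, 1.47 times this floor. The RPM values of *MIR856* and *MIR2937* are near the floor of a single library, and the ratios bound the counting error of day 4 alone. *MIR856* and *MIR2937* passed the test (limma adjusted p = 0.0039 and 0.016). *MIR2937* did not pass it with edgeR (edgeR adjusted p = 0.10) or without day 4 replicate 1 or 2 (log2 fold change of 1.41 in either fit).

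The genes that hold the bulk of the counted miRNA reads did not pass the test in the main fit. Of these, *MIR319a* passed it with median-ratio scaling and with scaling to the reads of miRNA genes. The 5 most abundant genes (*MIR158a*, *MIR319c*, *MIR161*, *MIR159a* and *MIR319a*) held 87.3% to 89.8% of the RPM of miRNA genes in each of the 5 libraries. RPM is not divided by length, and reads of miRNAs found at several places are not in it, so this orders loci and not miRNAs. *MIR158a* had 9255 ± 695 RPM on day 4 (SD, n = 2) and 10730 ± 513 RPM on day 8 (SD, n = 3), with a log2 fold change of 0.21 and an interval of -0.09 to 0.52. *MIR159a*, whose miRNA limits *GAMYB* genes of anther development, had 3599 ± 102 RPM (SD, n = 2) and 4253 ± 249 RPM (SD, n = 3), an interval of -0.05 to 0.53. *MIR161*, whose miRNAs target genes of pentatricopeptide repeat (PPR) proteins, had 4052 ± 75.4 RPM (SD, n = 2) and 3952 ± 406 RPM (SD, n = 3), an interval of -0.38 to 0.30. *MIR159c* came close to the threshold, with 586 and 516 RPM on day 4 and 672, 846 and 712 RPM on day 8 (log2 fold change of 0.43, SE 0.17, limma adjusted p = 0.097). It passed the test with the authors' quantile-normalized values (0.26, limma adjusted p = 0.0073).

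Summed over all miRNA genes, the level was 28640 ± 1419 RPM on day 4 (SD, n = 2) and 30880 ± 1148 RPM on day 8 (SD, n = 3). Of the difference in means of 2243 RPM, *MIR158a* held 1479 RPM, the 16 genes that rose held 526 RPM, and the 4 that fell held -137.7 RPM. The changed genes are thus a small part of the counted reads.

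When the loci of a family were summed, 98 of 214 families were tested and 17 changed (17.3%), 14 higher and 3 lower on day 8. They are the families of the changed genes except miR319 and miR156. Only 6 of these families have more than 1 tested locus. In miR157, miR167, miR396, miR171 and miR858 the sum rose, and in miR164 it fell. The sum over the miR171 loci changed by 1.05 (SE 0.34, limma adjusted p = 0.031), a call lost in 9 of the 24 settings. Without day 4 replicate 1, 10 families changed, 8 higher and 2 lower.

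The mature sequences of the changed genes resembled those of all tested genes. A 5′ U, the base preferred by AGO1, was found in 21 of 33 (63.6%) against 114 of 180 (63.3%), and a length of 21 bases in 28 (84.8%) against 136 (75.6%). A location over a protein-coding gene was found for 4 of the 20 changed genes and for 37 of the 120 tested ones (30.8%). End-dependent loci were 5 of the 20, 3 higher and 2 lower, out of 23 tested (21.7%). Without all end-dependent loci 13 genes were higher and 2 lower.

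Set beside days 0 and 2, which were sequenced in another run, 12 of the 16 genes that rose had all day 8 libraries above all 5 libraries of days 0 and 2. Counts against days 0 and 2 were made only over the changed genes, which were chosen by their day 8 values. The share over all tested genes was not determined, so the counts are not a trait of the changed genes. *MIR824* had 15.4 to 25.0 RPM in these earlier libraries and *MIR863* 204 to 316 RPM, and both were thus at about the same level from day 0 to day 4. *MIR780* and *MIR856* were at 0 in all of them. *MIR167a* and *MIR396b* rose between day 4 and day 8, but their day 8 libraries remained below all libraries of days 0 and 2, where *MIR167a* had 83.9 to 115 RPM. All 4 genes that fell were lowest on day 8, and *MIR172d* had 30.3 to 55.9 RPM on days 0 and 2. For differences across runs the stage and the run cannot be told apart.

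**Figure D4:**
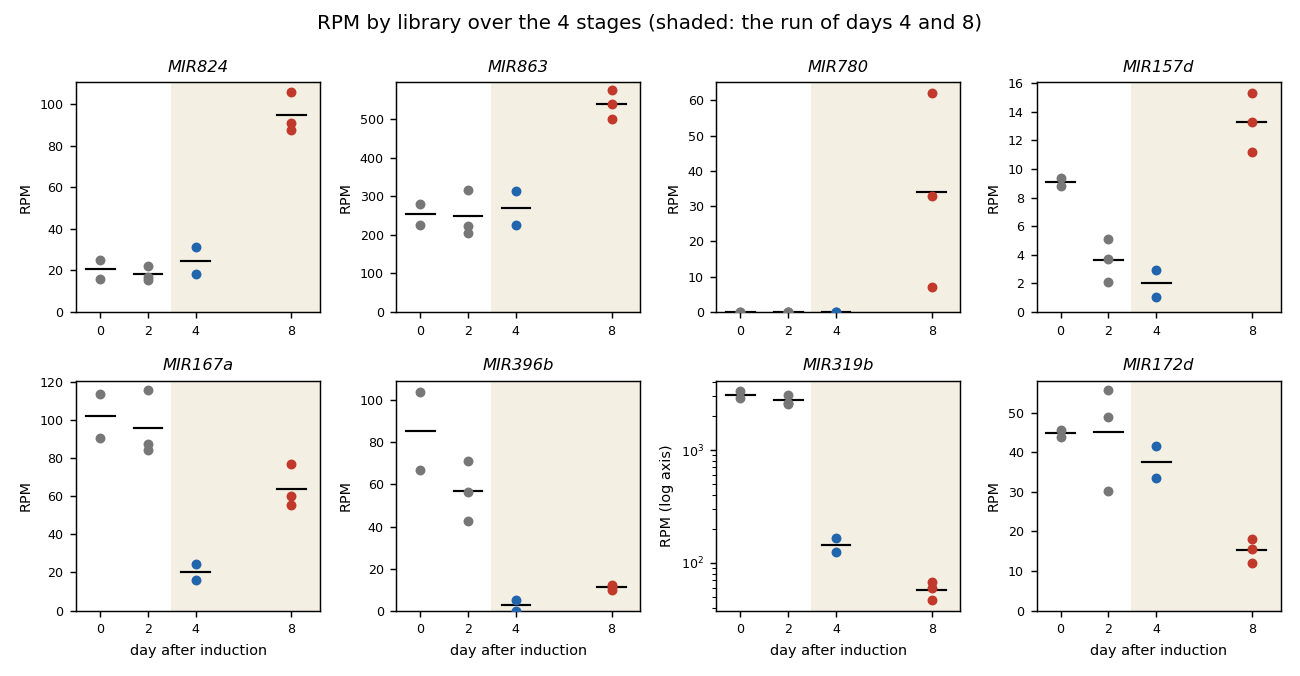
RPM (y axis) of 8 changed miRNA genes in each library by day after induction (x axis), with the mean as a line. Days 4 and 8 (shaded) were sequenced in the same run. *MIR824*, *MIR863* and *MIR780* are higher on day 8 than in any earlier library, *MIR167a* and *MIR396b* lie below the libraries of days 0 and 2 on both later days, and *MIR319b* is shown on a log axis.

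The step from day 4 to day 8 was also compared with the step from day 0 to day 2, each of which lies within a run. The steps differ in length, and only the earlier one starts at day 0, taken here as not yet induced. The earlier step thus holds the start of the DEX treatment, and the later one lies within it. They are therefore not like for like, and the part of this in their difference was not tested. Over the same 120 genes, the 5 libraries of days 0 and 2 gave no changed gene (limma, 0%), with a smallest adjusted p of 0.44, 11 genes at an unadjusted p under 0.05 and none with edgeR. The difference between the steps itself passed the test in 14 genes (11.7%), 12 with a higher and 2 with a lower value for the later step. Of the 14, 12 were among the 20 changed genes. Both tests hold the same difference of day 8 and day 4, so this overlap is in part built in. *MIR157d* differed by 3.48, since its log2 fold change was -1.17 from day 0 to day 2 and 2.31 from day 4 to day 8. For *MIR824* the difference was 2.09, for *MIR319b* -1.14 and for *MIR172d* -1.22. The number of genes depended on single libraries. It was 6 and 9 without day 0 replicate 1 or 2, 5, 9 and 7 without day 2 replicate 1, 2 or 3, 8 without day 4 replicate 1 and 9 without day 8 replicate 1.

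**Figure D5:**
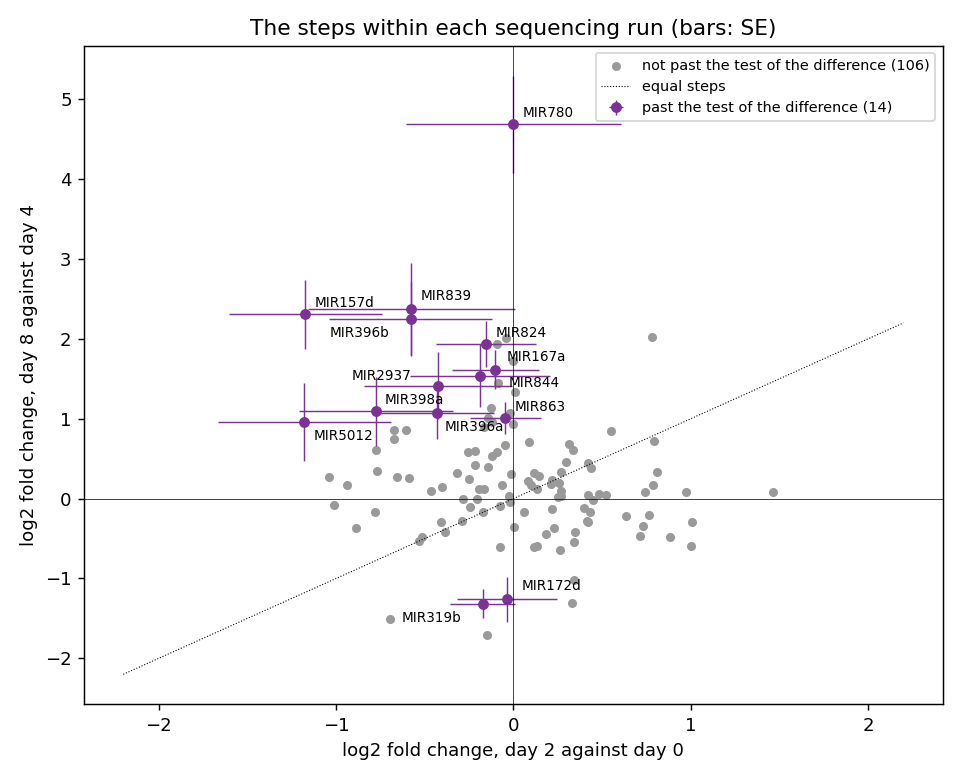
log2 fold change of day 2 against day 0 (x axis) and of day 8 against day 4 (y axis) for the 120 tested miRNA genes, each step within its own run. The 14 genes whose steps differed past the test are named, with the SE of each step as bars, and the dotted line marks equal steps. *MIR780* lies at 4.69 on the y axis and *MIR319b* at -1.31.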

How the data were processed

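The authors deposited RPM values, which are the gene counts of STAR on TAIR10 after trimming with Trim Galore, divided by the mapped reads of the library. STAR's gene counts keep reads that map to 1 place. Their versions are not stated for the miRNA-seq reads in the sources used here, and the version of STAR in the paper is that of the mRNA-seq reads. A separate deposited table holds quantile-normalized RPM, which served as an alternative (a signal value of the authors). Another normalized table, named as with outliers, has 3 library columns that match no sample and were not used. Runs were taken from the authors' table, where the name of a run stands only beside the first of its libraries. 1 day 2 library carries a label of time 0 and was taken as day 2 from its title. The sources differ on the DEX concentration and the kits.

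The test was that of limma 3.58.1 (R 4.3.3) with its intensity trend, on log2(RPM + 1). All 10 inflorescence libraries entered the model, which had a term for each stage. Benjamini-Hochberg adjustment was over all 120 tested genes, and the threshold was 0.05. The steps were compared by the contrast of both differences. In each library 100% of the low RPM values were whole multiples of the RPM of 1 read (tolerance 0.1 of a read). The recovered reads were tested with edgeR 4.0.16 (quasi-likelihood), an alternative chosen after seeing the data, which gave 14 genes higher and 4 lower, all among the 20. The other alternatives were pseudocounts of 0.5 and 5, other filters and scalings, the fit without trend, with seedlings, of days 4 and 8 alone or with a replicate block, and the fit without each library.

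The genes, lists and tests were chosen with earlier results of these data known. Named are all changed genes, genes at 0 on 1 day only, the 5 most abundant genes, the most abundant gene of each list, other tested loci of changed families, genes with an adjusted p of 0.05 to 0.10 and those just inside and outside the limit for testing, of which *MIR859* and *MIR835* lay just inside. Lists were fixed by family number. The test of day 8 against day 4 was tried on 20 sets of simulated reads, with the same spread for all genes. It found 37% of the 2-fold and 56% of the 4-fold changes and called 0.85% of the unchanged genes. In number these were 74 and 112 true calls, beside 17 calls of unchanged genes. Many real changes of 2-fold or 4-fold can thus be missed, and a part of the calls can be false. Of the 325 loci, 177 were matched to TAIR10.1 by identifier and 148 by name. Mature sequences were searched by exact match on both strands with Python 3.11.15, numpy 2.4.6 and pandas 2.3.3.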

Additional observations from a re-analysis of the deposited data

Results flagged for a closer look

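In 14 genes the step from day 4 to day 8 differed from the step from day 0 to day 2 by a test of the difference itself (limma, adjusted p under 0.05 over 120 genes). The difference in log2 fold change was higher for the later step in *MIR780* (4.69), *MIR157d* (3.48), *MIR839* (2.95), *MIR396b* (2.83), *MIR5012* (2.14), *MIR824* (2.09), *MIR398a* (1.87), *MIR2937* (1.84), *MIR844* (1.73), *MIR167a* (1.72), *MIR396a* (1.50) and *MIR863* (1.06). It was lower in *MIR172d* (-1.22) and *MIR319b* (-1.14). *MIR398a* and *MIR5012* are the 2 that did not pass the test between day 4 and day 8. That test and the test of the steps share the difference of day 8 and day 4 and are not independent. *MIR5012* had a mean of 2.54 RPM on day 0, 0.646 RPM on day 2, 0.294 RPM on day 4 and 1.46 RPM on day 8, and *MIR398a* had 0.713, 0, 0.294 and 1.75 RPM, levels of a few reads. The mean of *MIR157d* was 9.09 RPM on day 0 and 3.64 RPM on day 2, a change that did not pass the test (limma adjusted p = 0.44), and it rose from 2.01 to 13.3 RPM between day 4 and day 8. The earlier step and the later one lie in different runs, differ in length and start from different stages. The part of run, length and starting stage in these differences was not tested. For *MIR319b*, *MIR167a*, *MIR396a* and *MIR396b*, which are end-dependent, the part of the read ends was not tested.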

How the results depend on the processing

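No changed gene turned direction under the 25 alternatives. *MIR780*, *MIR824*, *MIR157d* and *MIR172d* remained called under all of them, and *MIR319b*, *MIR167a*, *MIR164c* and *MIR856* under the 24 that gave a value. The other 12 changed genes lost the call under at least 1, 9 of them without day 4 replicate 1, 7 with the seedlings in the fit and 6 with the authors' quantile-normalized values. The fitted log2 fold change of genes at 0 on day 4 moved with the pseudocount and the tool, from 2.64 to 8.60 for *MIR780*, 0.55 to 4.85 for *MIR856* and 0.42 to 4.36 for *MIR2937*. The number of changed genes ranged from 12 to 20 when 1 library was left out, the number of families from 10 to 18 and that of the comparison of steps from 5 to 13. With the seedlings in the fit there were 11 families and 6 genes in the comparison of steps. The latter were 8 genes when genes were filtered over all inflorescence libraries, 8 without the trend and 8 with edgeR. Whether the replicate numbers shared between days are more than names cannot be told from the values (2 pairs, r of -0.06 and -0.16). With 2 day 4 libraries, the r with either of them is that with the other, with its sign turned. The sequence names number the day 4 libraries 2 and 3 instead, which gives r of 0.159 and 0.0728. With a replicate block by the titles' numbers 22 genes, 18 families and 11 genes in the comparison of steps passed the test, and the 2 genes added to the 20 are *MIR157c* (1.71, limma adjusted p = 0.014) and *MIR173* (0.58, limma adjusted p = 0.028). The depth of 926300 to 1702671 mapped reads limits genes under 10 RPM, of which 1 read is 0.587 to 1.08 RPM, and day 4 had only 2 libraries. The cause of the changes with setting was not tested.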
